A study of Homo sapiens with 18 samples.

Results

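Genes of DNA repair and the DNA damage response were followed on Affymetrix HG-U133 Plus 2.0 arrays that were washed and scanned repeatedly. Members were chosen by name: all probe sets to which the platform annotation gives, as the only symbol, 1 of 43 listed repair genes. The rule found 94 of the 54675 probe sets, for 39 of the 43 genes. BRCA2, FANCA and FANCD2 had no such probe set in the annotation used and were not analysed here, and PMS2 was listed only together with PMS2CL, on 2 probe sets. Of the 39 genes, 15 had a single probe set, 5 had 2 and 19 had 3 or more, up to 6 for ATM and for LIG3.

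All 18 scans came from 1 RNA sample of untreated FTC133 cells, a line from a human follicular thyroid carcinoma, so no scan differs from another in the state of the cells. The RNA was hybridised to 3 arrays. Scans of the first series were taken of array A at 0, 2, 7 and 17 stringent wash cycles. Array B had 2 cycles before staining and received the same additional cycles, which makes 2, 4, 9 and 19 in total, and array C was read after 6 cycles, the standard protocol. The arrays were then stained again and a second series followed, with 17, 19, 24 and 34 total cycles on array A, 21, 23, 28 and 38 on array B and 12 on array C. The comparisons asked how the signals of the repair genes depend on the washing, whether that dependence differs between the series, and whether signals read after the second staining match those read after the first.

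Cells mend DNA by several routes. ATM and ATR are kinases that sense breaks and stalled forks and act through CHEK1 and CHEK2, and the MRE11, RAD50 and NBN complex processes broken ends. Breaks are then joined by homologous recombination or by end joining, in which the Ku proteins XRCC6 and XRCC5 bind the ends, while damaged bases, mismatches, bulky adducts and cross-links are handled by base excision, mismatch, nucleotide excision and Fanconi anaemia proteins. On an array, stringent washing removes RNA that is weakly bound to the probes, so a gene's signal depends on how firmly its own transcript, and any other RNA, is held there.

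The values are MAS5 signals scaled scan by scan, with a trimmed mean of 250 throughout. A rise is therefore a rise relative to the rest of the array, and the median of all probe sets decreased by 0.61 (array A) and decreased by 0.27 (array B) on the log2 scale between the first and the last step of the first series. Changes called relative below are log2 changes less that median. The scans of an array are repeated readings of it and share 1 RNA sample, so the p-values hold no spread between samples of cells. The washing fits take arrays A and B as replicates of each step, although array B had 2 cycles before staining. The spread in these fits thus holds any difference this makes, beside technical spread. Array A before any stringent wash had the highest median signal, 136, against 51.0 on array C after standard washing. All of array A was high, however, with 86.3 after 17 cycles and 88.4 after 34. On array B the median signal was 63.8 after 2 cycles. The thyroid transcription factors PAX8 and NKX2-1 had signals of 757 and 766 on array C, HHEX had 176 and the iodide symporter SLC5A5 87.7, while thyroglobulin was at 40.7, the TSH receptor at 38.9 and FOXE1 at 39.9, below the array's median. The 3 leukocyte markers measured reached at most 42.6 there, the 3 endothelial markers 111 and the 2 hepatocyte markers 52.4, and HBB, the only erythroid marker measured, was at 107. Of these markers of other cell types, PECAM1 at 111, VWF at 79.0, APOA1 at 52.4 and HBB lay above the array's median.

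Repair genes gave mostly bright probe sets. On array C after standard washing 76 of the 94 member probe sets lay at or above the median of the array, and 19 (20.2%) lay in its brightest 10%. Taking for each gene its brightest probe set on that scan, all 39 genes lay above the array's median, with a median signal of 488. Read through its brightest probe set in the same way, 64.3% of all 19775 genes lay at or above that median, with a median signal of 101. Probe sets differ in how well they bind, so the order of signals is not an order of transcript amounts, and the signals below are given as levels of probe sets.

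The end joining genes included the brightest member. XRCC6 and XRCC5, the Ku subunits, had signals of 6358 and 3841 on array C, and PRKDC, the kinase that Ku recruits to ends, had 2278. LIG4, the ligase of the pathway, had 488 and its partner XRCC4 had 227. Among the base excision and strand break genes, the endonuclease APEX1 had a signal of 4476 and the poly(ADP-ribose) polymerases PARP2 and PARP1 had 2671 and 1005. The uracil glycosylase UNG was at 1160, the ligase LIG3 at 361, the oxoguanine glycosylase OGG1 at 338 and the scaffold XRCC1 at 184.

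In damage signalling, CHEK1 had a signal of 1083, ATR 950, CHEK2 562 and ATM 369. NBN was the brightest member of the MRE11 complex with 1773, followed by RAD50 with 701 and MRE11 with 372. The homologous recombination genes BRCA1, its partner BARD1 and PALB2 had signals of 531, 524 and 375, whereas RAD52, XRCC2 and XRCC3 had 157, 113 and 70.7. XRCC3 was the lowest of the 39 genes.

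Of the nucleotide excision genes, the damage sensors DDB1 and DDB2 had signals of 1376 and 152 and XPC had 271, and the damage verifier XPA had 379. The nuclease subunits ERCC1, ERCC5 and ERCC4 had 861, 651 and 93.2, and the helicases ERCC3 and ERCC2 had 306 and 276. The mismatch genes MSH3 and MSH6 were at 609 and 199 and the alkyltransferase MGMT at 249. Of the Fanconi anaemia genes FANCI was at 1808 and FANCC at 167.

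**Figure D1:**
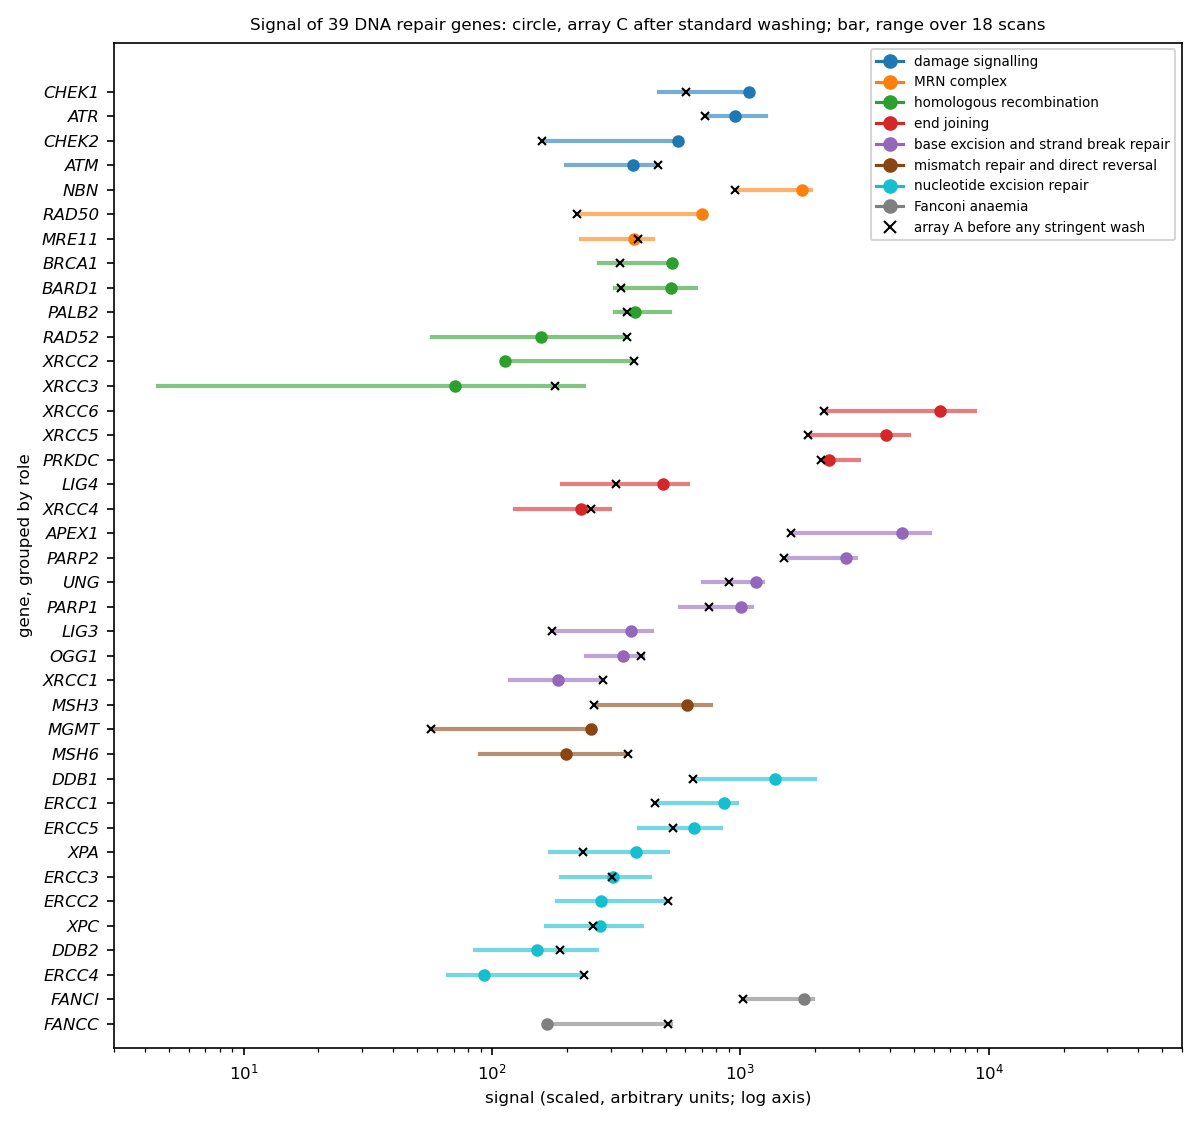
Signal of each of the 39 repair genes (scaled units, log axis), by its brightest probe set on array C, with the genes grouped by role. The circle is array C after standard washing, the bar runs from the lowest to the highest of the 18 scans and the cross is array A before any stringent wash. The bar of XRCC3 is the longest, from 4.51 to 235, and XRCC6 reaches 8802.

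The levels varied unevenly over the 18 scans. The standard deviation of the log2 signal was 0.16 for PRKDC, 0.19 for PALB2 and 0.19 for ATR, but 0.51 for XRCC6, 0.62 for MGMT, 0.74 for RAD52 and 1.98 for XRCC3. For MGMT the scans ranged from 56.7 on array A before washing to 249 on array C. The 5 genes with the highest signals on array C, XRCC6, APEX1, XRCC5, PARP2 and PRKDC, were also the highest 5 on each of the other scans. Across the 39 genes, the rank correlation with array C was 0.71 for array A before any wash and between 0.88 and 0.98 for the other 16 scans, with the scans sharing 1 RNA sample.

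In the first series, no probe set of the array passed the limma test of 17 against 0 additional cycles at an adjusted p of 0.05, neither higher (0% of all 54675) nor lower (0%), and 0 of the 94 member probe sets did. At an unadjusted p below 0.05, 3 members were higher and 10 lower, against 1914 and 7573 of all probe sets. What the members did on each array is therefore described by value. On array A the median relative change of the 94 probe sets was 0.56 on the log2 scale, with 68 above the median of all probe sets and 26 below. On array B it was -0.03, with 46 above and 48 below. On both arrays together, 34 members lay above the median change and 14 below it, where 27.3% of all probe sets lay above and 27.3% below. The remaining 46 members (48.9%) moved to opposite sides on arrays A and B, near the 45.3% of all probe sets that did.

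The shift on array A went with brightness. All probe sets in the brightest 10% of array C had a median relative change of 1.25 on array A and 0.47 on array B, and the 19 members among them had 0.99 and 0.30. In the next 10% the medians over all probe sets were 0.62 and -0.05, and those of the 23 members there 0.72 and -0.21. Set against the median of all probe sets in the same 10% of signals on array C, 45 of the 94 members were above and 49 below on array A, and 43 were above and 51 below on array B. Repair genes as a list thus stood near other probe sets of the same brightness.

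**Figure D2:**
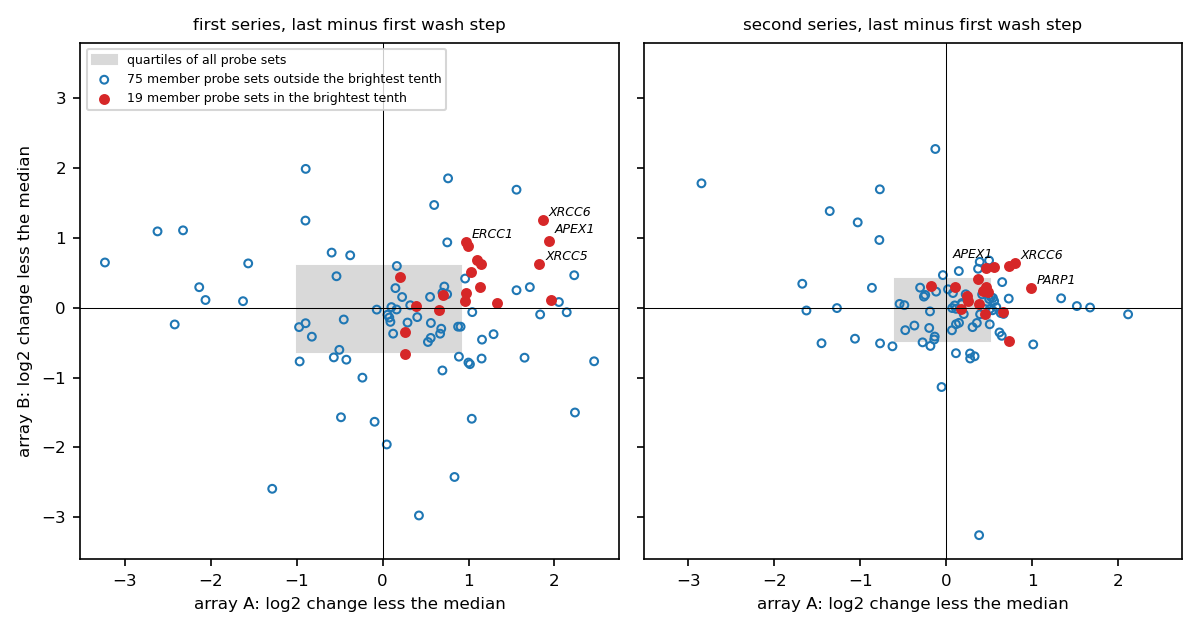
Relative log2 change from the first to the last wash step of each series, array A on the x axis and array B on the y axis, for the 94 member probe sets. Red points are the 19 in the brightest 10% of array C, open points the other 75, and the grey box spans the quartiles of all 54675 probe sets on both arrays. In the first series XRCC6 lies at 1.86 and 1.25 and APEX1 at 1.93 and 0.96, while the open points scatter to both sides.

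The highest fitted changes of the 39 genes were those of the Ku subunits and of APEX1. XRCC6 read 2176, 3359, 4166 and 5175 on array A, with 4452, 6314, 7958 and 8802 on array B through the 4 steps. Its signal increased at each step on both arrays, and every reading of array B was above that of array A at the same step. The fitted log2 change was 1.12 ± 0.27 (SE) with a limma adjusted p of 0.20. XRCC5 read 1878, 3040, 3776 and 4347 on array A, with 3405, 3749, 4048 and 4349 on array B, so that the arrays differed before the additional cycles and ended at nearly the same level. Its fitted change was 0.78 ± 0.34 with a limma adjusted p of 0.32.

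The other end joining genes did not follow Ku. PRKDC had relative changes of 0.66 on array A and -0.03 on array B, and LIG4 0.29 and -0.21. LIG4 has the middle signal of the 39 genes and read 317, 310, 323 and 254 on array A, with 489, 307, 292 and 351 on array B. The readings of the arrays overlap. XRCC4 was among the lowest, with a fitted change of -1.06 ± 0.30 and a limma adjusted p of 0.23.

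APEX1, which cuts DNA at sites that have lost their base, rose in signal at each step as XRCC6 did. It read 1600, 2982, 3543 and 3992 on array A, with 3584, 4789, 5234 and 5785 on array B. The fitted change was 1.00 ± 0.31 with a limma adjusted p of 0.24. All 7 genes of base excision and strand break repair lay above the median change on array A and 4 of the 7 on array B. Of the 39 genes 33 and 16 did, and of all 19775 genes 11830 and 10583. Among the 7, PARP2 was at 1.14 and 0.62 and PARP1 at 0.71 and 0.18. UNG decreased in signal at each step on both arrays, from 900 to 707 and from 1091 to 712, and had relative changes of 0.26 and -0.35. LIG3 had 1.29 and -0.38, OGG1 0.32 and 0.04 and XRCC1 0.16 and -0.02.

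In the MRE11 complex RAD50 was among the highest by the fit, 0.63 ± 0.48 with a limma adjusted p of 0.52, but this rested on array A, where its relative change was 2.05 against 0.08 on array B. Without the first scan of array A the fitted change of RAD50 was -0.06. NBN had relative changes of 1.03 and 0.51, above the median on both arrays, and MRE11 had 0.06 and -0.10. CHEK2, the effector kinase of ATM, showed the same split as RAD50. It read 159, 420, 442 and 460 on array A, with 546, 497, 513 and 434 on array B, and its fitted change of 0.60 ± 0.54 (limma adjusted p of 0.58) became -0.23 without the first scan of array A. On array A that first scan was far below the other readings, which lay near those of array B.

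The other signalling kinases differed among themselves. ATM had a fitted change of -0.75 ± 0.34 with a limma adjusted p of 0.33, and relative changes of -0.45 and -0.17. ATR had 0.96 and 0.10 and CHEK1 0.26 and -0.66. Of the homologous recombination genes, BRCA1, BARD1 and PALB2 had relative changes of 0.88, 0.91 and 0.56 on array A and of -0.27, -0.27 and -0.22 on array B. Each of the 6 genes of this group was above the median change on 1 array and below it on the other, as were 42.3% of all genes.

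XRCC3 had the largest gap between the arrays of the 39 genes. XRCC3 read 179, 125, 132 and 157 on array A, with 42.7, 18.4, 6.86 and 4.51 on array B, so that all readings of array B lay below all readings of array A. Its fitted change was the lowest of the 39 genes, -1.72 ± 0.82 with a limma adjusted p of 0.35, and relative changes were 0.42 on array A and -2.98 on array B. RAD52 had a fitted change of -1.21 ± 0.72 (limma adjusted p of 0.43) and a split in the opposite direction, -1.63 on array A and 0.09 on array B. XRCC2 had 0.40 and -0.13.

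**Figure D3:**
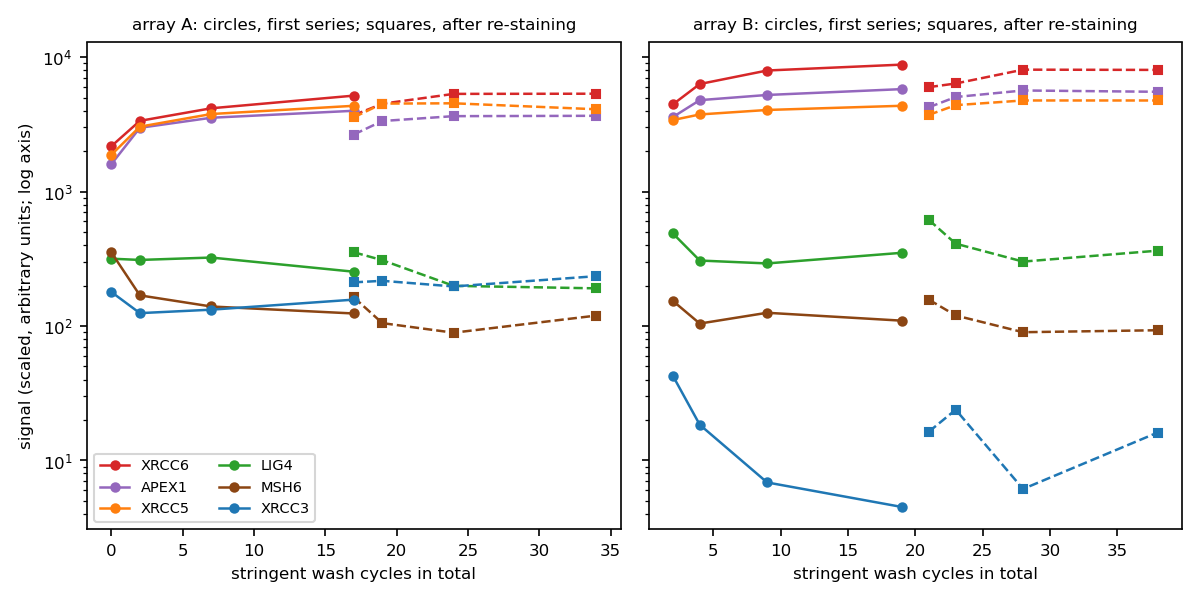
Signal (scaled units, log axis) against the total number of stringent wash cycles for 6 repair genes on array A and on array B. Circles and solid lines are the first series, squares and dashed lines the second, after re-staining. XRCC6, APEX1 and XRCC5 climb on both arrays in the first series, and XRCC3 drops from 42.7 to 4.51 on array B against 179 to 157 on array A.

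Among the nucleotide excision genes, ERCC4 and ERCC1 encode the subunits of 1 nuclease. By their brightest probe sets they lay towards opposite ends, which their other probe sets bore out only in part. ERCC4 decreased in signal at each step, from 235 to 78.8 on array A and from 136 to 66.4 on array B, with a fitted change of -1.31 ± 0.35 and a limma adjusted p of 0.22. Its relative changes were -0.97 and -0.77. ERCC4's other probe set, 210158_at with a signal of 69.9 on array C, had relative changes of 2.46 on array A and -0.77 on array B. ERCC1 had a fitted change of 0.52 ± 0.29 with a limma adjusted p of 0.40 and relative changes of 0.97 and 0.95. Of ERCC1's other probe sets, 203720_s_at with a signal of 657 had 1.71 and 0.30, and 228131_at with 253 had -0.50 and -0.60. DDB1 rose in signal at each step, from 646 to 840 on array A and from 1257 to 1933 on array B, whereas its partner DDB2 had relative changes of -0.54 and 0.45. XPA had relative changes of 1.65 and -0.72 and XPC of 1.15 and -0.73. ERCC5 had 0.75 and 0.19, ERCC3 0.67 and -0.37 and ERCC2 0.09 and -0.20.

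Of the mismatch genes, MSH6 was among the lowest with a fitted change of -0.999 ± 0.38 (limma adjusted p of 0.29), and MSH3 had relative changes of 1.00 and -0.79. MGMT, which removes alkyl groups from guanine, had 1.83 and -0.10. FANCI, the partner of FANCD2, had 0.97 and 0.21 and FANCC, part of the core complex, 0.23 and 0.15. Through all 94 probe sets, 4 rose in signal at each step on both arrays, those of XRCC6, XRCC5, APEX1 and DDB1 named above, where 3.77% of all probe sets did so. Another 4 fell at each step, ERCC4, UNG and a probe set each of CHEK1 and LIG3, where 2.97% of all probe sets did.

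Calls appeared when limma's prior variance was made to follow the signal level and to be robust to outlying probe sets. This setting called 3 members higher (3.19%) and 1 lower (1.06%), against 3.57% and 1.21% of all probe sets. The members were XRCC6 with an adjusted p of 7.2e-06, APEX1 with 0.00089, XRCC5 with 0.022 and, lower, the MSH3 probe set 205887_x_at with 0.012. The member shares were near those of the array as a whole.

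Most repair genes with several probe sets held probe sets that disagreed. Of the 24 genes with at least 2, 9 on array A and 7 on array B had all their probe sets above or all below the median change. The median range of relative log2 changes within a gene came to 2.04 for array A and 1.57 for array B. The annotation gives these probe sets 1 gene each, but whether each reads only that gene's transcripts was not tested. The probe set that was brightest on array C was also the brightest of its gene in 18 of the 24 genes on array A before washing and in 17 after 17 cycles, and in 22 of 24 on array B at both steps. None of these counts and ranges was taken over the other genes of the array, so they are not shown to be particular to repair genes.

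PARP2 had the narrowest range on array A among the 19 genes with 3 or more probe sets. Its 3, with signals of 2671, 2419 and 1814 on array C, had relative changes of 1.14, 1.09 and 1.13 on array A and of 0.62, 0.69 and 0.30 on array B. FANCI (0.97 to 1.95 on array A and -0.06 to 0.21 on array B) and OGG1 (0.32 to 0.96 and 0.04 to 1.85) had all 3 probe sets above the median on array A. CHEK1 stayed between 0.10 and 0.60 on array A and spanned -0.66 to 1.47 on array B.

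XRCC5 did not hold together. Besides the probe set described above, 208643_s_at with a signal of 1243 had relative changes of 0.20 and 0.44, and 232633_at with 25.5 had -1.29 and -2.59. The dimmest one read 264 on array A before washing and 70.8 after 17 cycles, and 33.5 and 4.62 on array B. PRKDC likewise had 2 probe sets at 0.66 and 0.72 on array A and a dim 1, with a signal of 87.8, at -1.57, which on array B had the highest value of the 3, 0.64.

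Probe sets of other genes moved apart between the arrays. ATM spanned -2.62 to 2.24 on array A and -1.5 to 1.09 on array B over its 6 probe sets, with signals from 1.25 to 369. MRE11 spanned -3.23 to 0.06 and -0.10 to 0.65, ATR -2.32 to 1.16 and -0.46 to 1.11, and MSH6 -2.14 to 0.75 and -0.22 to 1.99. In MRE11, ATR and MSH6 the probe set lowest on array A was above the median on array B, each with a signal of at most 31.3 on array C. The same held for brighter probe sets of ATM, with a signal of 103, and of RAD52, with 157, the brightest of that gene. RAD52 spanned -1.63 to 0.84 and -2.42 to 0.60, and FANCC 0.23 to 1.56 and -1.59 to 1.69.

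The remaining genes lay between. RAD50 spanned -0.49 to 2.05 on array A and -1.57 to 0.08 on array B, in the order of signal on both, with signals of 701, 188 and 148. NBN spanned -0.97 to 1.33 and -0.43 to 0.51 over 5 probe sets, and LIG3 -0.57 to 1.29 and -1.63 to 0.22 over 6. ERCC1 spanned -0.50 to 1.71 and -0.60 to 0.95, XRCC4 -0.90 to 1.56 and -1.001 to 1.25, BARD1 -0.82 to 0.91 and -0.41 to 0.28 and MSH3 -0.59 to 1.00 and -0.79 to 0.79.

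**Figure D4:**
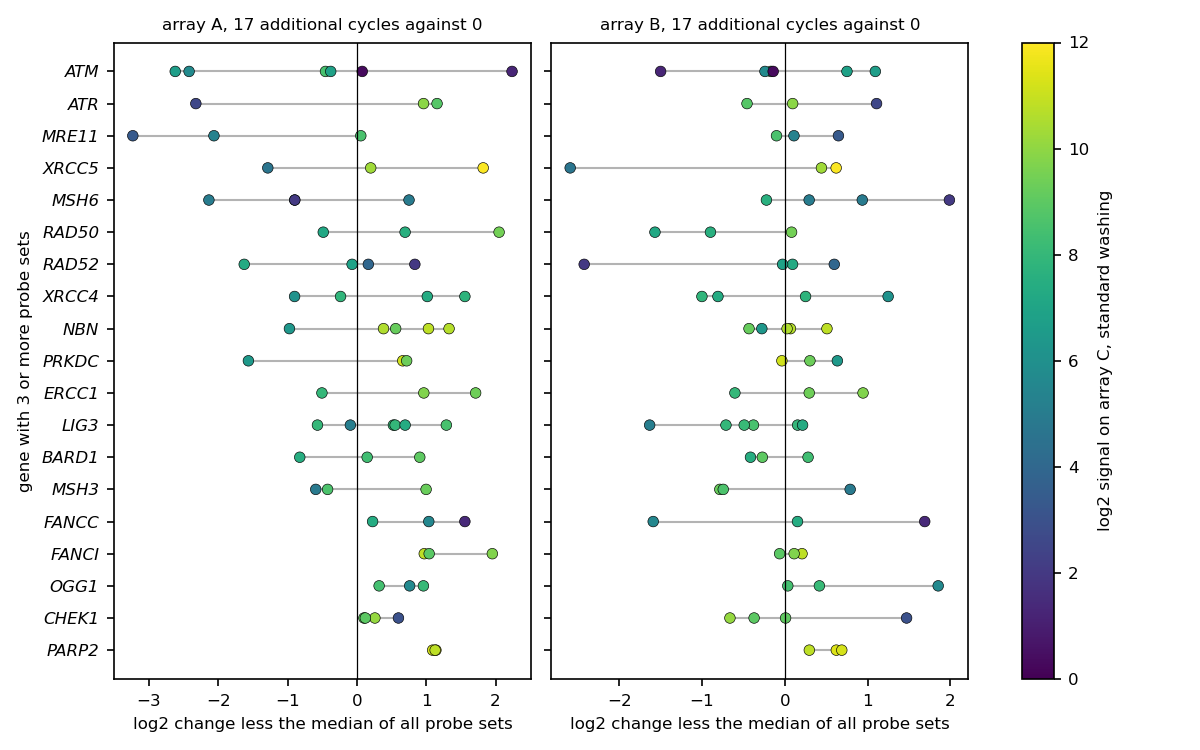
Relative log2 change after 17 additional cycles in the first series for every probe set of the 19 repair genes with 3 or more, on array A (left) and array B (right). Colour gives the log2 signal on array C and the grey line joins the probe sets of a gene. PARP2 spans 0.05 on array A and ATM 4.86, and dark points lie at the ends of several lines.

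In the second series, after re-staining, no probe set of the array passed the limma test, higher (0%) or lower (0%), and 0 of the 94 members did, with 1 higher and 6 lower at an unadjusted p below 0.05, against 1395 and 6358 of all probe sets. Members had a median relative change of 0.23 on array A and of 0.04 on array B, and 35 members were above the median on both arrays and 15 below, where 28.7% of all probe sets were above and 28.7% below. XRCC6 read 3705, 4502, 5332 and 5348 on array A, with 5984, 6370, 8074 and 8040 on array B. Its signal increased up to the third step and was then nearly flat. In this series 1 member probe set, of PARP2, rose in signal at each step on both arrays (1.36% of all probe sets did) and 1 of BARD1 fell at each step (2.07% did).

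The highest fitted changes in the second series, as log2 change with its SE and the limma adjusted p, were 0.53 ± 0.53 for MGMT (0.65), 0.50 ± 0.37 for CHEK2 (0.55), 0.48 ± 0.18 for XRCC6 (0.35), 0.42 ± 0.17 for APEX1 (0.36), 0.39 ± 0.28 for PARP1 (0.54) and 0.35 ± 0.28 for DDB2 (0.57). For MGMT and CHEK2 this rested on the first scan of array A in the second series, without which they had -0.21 and -0.07. The lowest were -0.88 ± 0.20 for ATM (0.33), -0.83 ± 0.21 for LIG4 (0.33), -0.62 ± 0.19 for ERCC4 (0.33), -0.60 ± 0.21 for MSH6 (0.35), -0.53 ± 0.21 for XRCC4 (0.36) and -0.48 ± 0.21 for MRE11 (0.38). LIG4 read 354, 309, 199 and 191 on array A, with 617, 410, 301 and 364 on array B, so that it was lower after the additional cycles on both. With the variance trend and robust moderation 2 members were higher, XRCC6 (adjusted p of 0.0042) and APEX1 (0.0066), against 2.38% of all probe sets, and 2 were lower, ATM (0.041) and LIG4 (0.047), against 0.448%.

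The difference of the washing change between the series was tested directly. In limma, 0 of the 94 members and none of the 54675 probe sets passed, higher (0%) or lower (0%), with 1 member higher and 1 lower at an unadjusted p below 0.05, against 1940 and 907 of all probe sets. The variance trend with robust moderation also called 0 members, and of all probe sets 0.0146% higher and 0.583% lower. As second minus first series, with the SE and the limma adjusted p, the lowest differences were -0.64 ± 0.32 for XRCC6 (0.96), -0.58 ± 0.33 for APEX1 (0.97), -0.58 ± 0.40 for ERCC1 (0.97), -0.56 ± 0.33 for DDB1 (0.97), -0.54 ± 0.55 for RAD50 (0.98) and -0.51 ± 0.38 for ERCC5 (0.97). All of these but DDB1 and ERCC5 were among the 6 highest genes of the first series. The change of the first series is subtracted in each difference, so such an overlap is partly built in and is no separate result. The highest differences were 1.78 ± 0.98 for XRCC3 (0.96), 0.94 ± 0.92 for RAD52 (0.97), 0.83 ± 0.55 for DDB2 (0.97), 0.68 ± 0.45 for ERCC4 (0.97), 0.62 ± 0.40 for CHEK1 (0.97) and 0.60 ± 0.63 for MSH3 (0.98). Since each scan is scaled and the series start from different numbers of total cycles, total washing and re-staining cannot be told apart in these differences.

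Re-staining was compared in 9 pairs of scans, each of 1 array at the same additional step before and after the second staining. The later scan of a pair also had 17 (array A), 19 (array B) or 6 (array C) more stringent cycles in total, so that re-staining and the added washing cannot be told apart in any change given for these pairs. Limma with the pair as block called 161 probe sets higher (0.294%) and 296 lower (0.541%), and of the 94 members 0 higher and 1 lower. The member called lower was the FANCC probe set 1559513_a_at, with a log2 change of -2.10 ± 0.33 and an adjusted p of 0.034. On array A it read 37.3, 90.0, 58.2 and 71.8 before and 20.9, 12.7, 8.56 and 8.53 after, on array B 22.5, 57.1, 40.9 and 60.5 before and 8.56, 7.81, 4.81 and 17.3 after, and on array C 2.62 before and 2.19 after. It was lower in 9 of 9 pairs, and the readings of arrays A and B before and after do not overlap. The call held without the first pair of array A or without the pair of array C, and was lost when any 1 of the other 7 pairs was left out, when the pairs were not used as block, and with the array as the unit (0 members called).

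FANCC's other probe sets behaved differently. The brightest, 205189_s_at, had a log2 change of 0.12 with a standard deviation of 0.20 over the 9 pairs and was higher in 6 of them. The third, 242654_at, had -1.40 with a standard deviation of 1.44 and was lower in 8 of 9. The call thus belongs to a probe set with a signal of 2.62 on array C and not to the gene's brightest one.

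ATM showed changes of both directions. The probe set 208442_s_at was higher in 9 of 9 pairs, by 1.77 on the log2 scale with a standard deviation of 1.501. On array A it read 58.0, 15.7, 9.66 and 7.09 before and 141, 139, 137 and 127 after, without overlap. The probe set 1554631_at was lower in 9 of 9 pairs, by -1.07 with a standard deviation of 1.12, and 210858_x_at was higher in 8 of 9, by 0.52 with 0.33. The brightest ATM probe set, 212672_at, had -0.13 with 0.26 and was lower in 6 of 9. Of all probe sets, 1.72% were higher in all 9 pairs and 2.2% were lower in all 9, and of the 94 members 1 and 2 were. With the variance trend and robust moderation 208442_s_at (adjusted p of 0.039) and 210858_x_at (0.041) were called higher. This setting called 1 of the 94 members lower, where 1.53% of all probe sets were called higher and 1.83% lower.

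**Figure D5:**
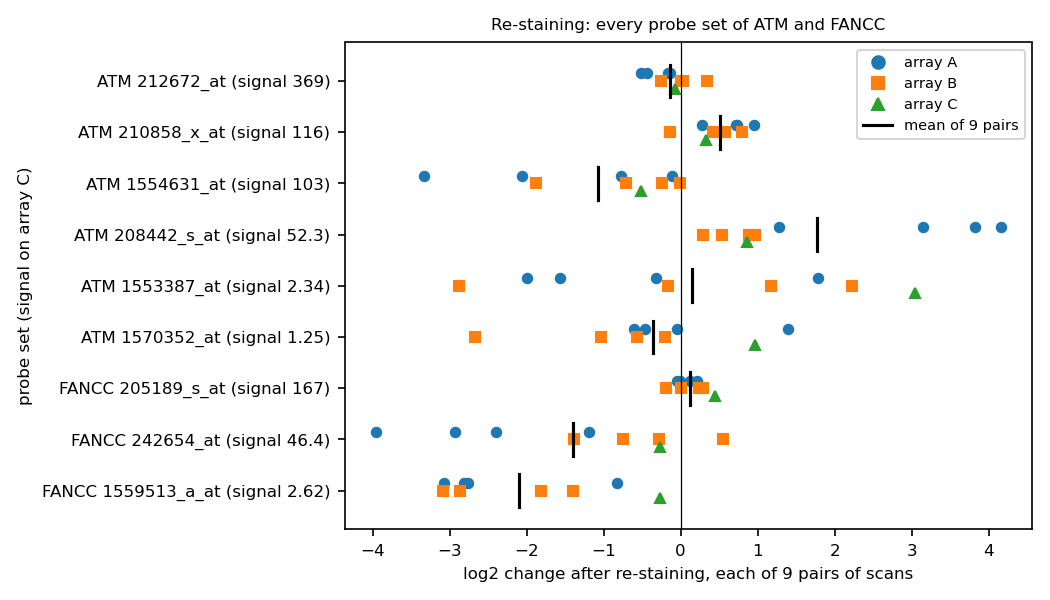
Log2 change after re-staining in each of 9 pairs of scans, for every probe set of ATM and FANCC, with its signal on array C after standard washing in brackets. Circles are the pairs of array A, squares those of array B and the triangle that of array C, and the bar is the mean. FANCC 1559513_a_at and ATM 1554631_at lie left of 0 in 9 of 9 pairs and ATM 208442_s_at right of 0, while the brightest probe sets of both genes cluster near 0.

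By the brightest probe sets, the 39 genes changed little on re-staining, with a median of 0.01 and quartiles of -0.09 and 0.16 on the log2 scale, and none was called. MSH3, which takes part in the recognition of small insertions and deletions, had the highest change, 0.54 ± 0.18 with a limma adjusted p of 0.15. It read 258, 520, 529 and 337 on array A before and 493, 564, 607 and 644 after, on array B 705, 585, 292 and 340 before and 643, 759, 742 and 717 after, and on array C 609 and 618. It was higher in 8 of 9 pairs, and the readings before and after overlap on arrays A and B. MSH6, which takes part in the recognition of base mismatches, had the lowest change, -0.38 ± 0.15 with a limma adjusted p of 0.21.

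MSH6 read 353, 169, 140 and 124 on array A before and 163, 105, 89.2 and 120 after, on array B 154, 104, 125 and 110 before and 157, 120, 89.9 and 93.0 after, and on array C 199 and 149. It was lower in 7 of 9 pairs and the readings overlap on both arrays. The other low changes, with the SE and the limma adjusted p, were -0.33 ± 0.15 for XRCC1 (0.25), -0.28 ± 0.13 for ERCC5 (0.27), -0.26 ± 0.11 for CHEK2 (0.25), -0.23 ± 0.13 for MGMT (0.36) and -0.13 ± 0.13 for OGG1 (0.61). The other high changes were 0.36 ± 0.27 for XRCC3 (0.49), 0.27 ± 0.19 for CHEK1 (0.46), 0.24 ± 0.14 for XRCC5 (0.37), 0.21 ± 0.13 for XRCC2 (0.42) and 0.19 ± 0.13 for XRCC6 (0.45). The smallest standard deviations over the 9 pairs were those of PARP2 (0.10), ATR (0.15) and PRKDC (0.20), and the largest that of RAD52 (0.97).

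Other genes of DNA repair, 83 found of a list of 90, were read through their brightest probe sets in the same way. The 3 with the highest signals on array C were PCNA, the sliding clamp of replication and repair synthesis, with 6479, RPA3, a subunit of the protein that coats single-stranded DNA, with 4076, and RAD23B, the partner of XPC, with 3824. Their relative changes in the first series were 1.85 and 1.37 for PCNA, 1.53 and 0.69 for RPA3 and 1.73 and 0.71 for RAD23B, on arrays A and B. Of the 83 genes, 43 were above the median change on both arrays and 11 below, where 35.5% of all genes were above and 22.2% below. Limma as used for the main comparisons called no gene of this list in the first series, in the second, in their difference or on re-staining. With the variance trend and robust moderation it called 6 higher in the first series, 2 higher in the second, 1 lower in the difference and 2 lower on re-staining. Of all probe sets this setting called 3.57%, 2.38%, 0.583% and 1.83%, in the same order and directions. At an unadjusted p below 0.05 in the main fits, 4 were higher and 3 lower in the first series, 1 and 6 in the second, 2 and 0 in the difference, and 4 and 8 on re-staining. Of all 54675 probe sets 1914 and 7573, 1395 and 6358, 1940 and 907, and 4558 and 6172 were, in the same order.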

How the data were processed

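The deposited signal values, from the authors' MAS5 analysis per the labels (version not given in the sources used here), are linear, 1 per probe set and scan; the trimmed mean after leaving out 2% at each end was 250 on all 18 scans. Array data hold no counts, so the number of arrays, 3, limits the precision. Symbols came from the platform annotation, which gives 41097 probe sets 1 symbol, 1801 several and 11777 none. Members, gene lists and tests were chosen with earlier results of these data known.

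Log2 signals were fitted over all 54675 probe sets with limma 3.58.1 (R 4.3.3): washing as 17 against 0 additional cycles, with the step as factor and the array as block, in 8 scans of each series; the difference between the series in 16 scans; re-labelling, that is re-staining, in 18 scans with the 9 pairs of array and step as block. P-values were adjusted by Benjamini-Hochberg over all probe sets, with a threshold of 0.05. The letter pairs scans of the same physical array, and the deviations of such scans from their step means correlated with r between 0.35 and 0.56. No 2 scans were identical.

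Each gene is named through its brightest probe set on array C, others by range. Fitted changes are given for the 6 highest and 6 lowest genes of a comparison. The settings tried besides were quantile normalization, centring, an anchor of the 100 brightest probe sets, an offset of 16, probe sets at or above the median signal, a prior variance that follows the signal with robust moderation, no block, and leaving out each scan at 0 or 17 additional cycles, each pair or each array.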

Additional observations from a re-analysis of the deposited data

How the results depend on the processing

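Under the alternatives the 48 fitted changes of named genes kept their direction and side of the threshold in 622 of 672 refits, passed the threshold in 24 and changed sign in 26. Anchoring on the 100 brightest probe sets, which lets the other signals fall with washing, turned the sign of 18 changes: in the first series to -0.84 for ERCC1, -0.76 for CHEK2, -0.73 for RAD50, -0.58 for XRCC5, -0.35 for APEX1 and -0.24 for XRCC6; in the second to -0.54 for DDB2, -0.49 for PARP1, -0.46 for APEX1, -0.41 for XRCC6, -0.39 for CHEK2 and -0.35 for MGMT; and on re-staining to 0.048 for MSH6, 0.10 for XRCC1, 0.15 for ERCC5, 0.17 for CHEK2, 0.19 for MGMT and 0.29 for OGG1. It called 62 members lower in the first series (54.6% of all probe sets) and 41 in the second (42.8%), and 26 higher on re-staining (20.1%). The members' median change, as means over arrays or pairs, was then -1.53, -0.99 and 0.43 against the anchor. Less the median over all probe sets it was 0.27, 0.13 and 0.04, which is another quantity. In the fits, with no median subtracted, the members' median was -0.26, -0.11 and 0.01 as deposited and -1.61, -0.99 and 0.44 with the anchor. By its construction it removes the scaling of each scan to a common mean. Leaving out single scans gave in the first series -0.23 (without the first scan of array A) to 1.43 (without that of array B) for CHEK2 and -0.062 to 1.32 for RAD50. In the second it gave -0.069 to 1.07 for CHEK2 and -0.21 to 1.28 for MGMT, with the first scans of arrays A and B in that series at the ends. In the difference the range was -1.23 (without the first scan of array B in the first series) to 0.15 (without that of array A) for RAD50. For MSH3 it was -0.079 to 1.29, in the same order. On re-staining, OGG1 ranged from -0.33 without array B to 0.0056 without array A, and CHEK1 was -0.010 with the array as the unit.

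The variance trend with robust moderation gave 3 members higher and 1 lower in the first series (3.57% and 1.21% of all probe sets). It gave 2 and 2 in the second (2.38% and 0.448%) and 2 higher and 1 lower on re-staining (1.53% and 1.83%). The offset of 16 gave 1 member higher on re-staining, against 361 of all 54675 probe sets. The FANCC call on re-staining (1 member lower) fell to 0 with the probe sets at or above the median signal, which leaves that probe set out, with no replicate block, and with the array as the unit, and to between 0 and 1 when a pair or an array was left out. Leaving out an array from the washing comparisons leaves the other array's change, given array by array above. The fit with no replicate block changed no other count of called members. With 1 probe set per gene the members' median change in the second series was 0.29. The number of the 39 genes above the array's median was 38 on array A before washing. The cause was not tested for any of these, apart from the construction named above.

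The arrays number 3 and carry 1 RNA sample, so nothing here bears on differences between cells. The members' changes in the first series spread unevenly with signal. On array B their interquartile range was 0.57 in the brightest 10% of signals (19 probe sets) and 3.19 in the dimmest 10% (5). In the third dimmest 10% (3 probe sets) it was 0.09. On array A it was 0.55 in the brightest and 1.48 in the dimmest 10%. These are spreads over different probe sets, and the precision of a single probe set was not tested.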

Other observations

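The 2 probe sets listed for both PMS2 and PMS2CL belong to no comparison above, since RNA of either gene could give their signal. On array C after standard washing 221206_at had a signal of 336 and 209805_at of 75.5. In the first series 221206_at read 291, 405, 395 and 346 on array A, whereas array B gave 396, 320, 340 and 339, with relative changes of 0.86 and 0.04. The dimmer 209805_at read 34.1, 45.9, 19.8 and 31.6 on array A, whereas array B gave 100.2, 67.2, 21.5 and 25.1 on array B, with relative changes of 0.50 and -1.73. After re-staining it read 5.79 on array C, 43.4, 81.2, 152 and 186 on array A. Array B then gave 16.5, 48.1, 7.00 and 8.47.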
